A study of Arabidopsis thaliana with 12 samples.

Results

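The genes described here are those that the chloroplast carries on its own DNA. They were measured in Arabidopsis thaliana leaves of the autophagy mutant atg5 after 48 h under water, atg5 without submergence (control), Col wild type (col) after 48 h under water, and col control. Each group holds 3 arrays of separate biological replicates, 12 arrays in all. The atg5 plants lack a protein needed to form autophagosomes, the vesicles that carry cell material to the vacuole, and the labels name neither the allele nor a second line. All plants had grown for 28 days with 12 h of light a day, and whole plants were kept under 10 cm of water in the same light cycle. The series' design text gives the harvests as 0 h and 48 h of submergence, so submergence and the later harvest cannot be told apart.

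A gene was taken where a probe set is annotated to 1 gene only, that gene lies on the plastid genome, and its symbol is among 58 named symbols. Of these, 57 were found among the 13356 genes tested, each with a single probe set. The gene ndhB was not analysed here, because its probe set is annotated to more than 1 gene. For 3 symbols that the mitochondrial genome also uses, the plastid gene was taken by its gene identifier. The genes fall into 32 of photosynthesis (psa, psb, pet, atp and rbcL), 10 ndh genes and 15 of gene expression (rpo, rpl and rps). The rule uses no measured value.

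Plastid genes code for the core proteins of both photosystems, the cytochrome b6f complex, the ATP synthase and the large subunit of Rubisco, the enzyme that fixes carbon dioxide, and their partner subunits come from the nucleus. The ndh genes code for a complex that returns electrons from photosystem I to the plastoquinone pool. Plastid genes are read by a bacterial-type RNA polymerase, whose core subunits are the products of rpoA, rpoB, rpoC1 and rpoC2, and by phage-type polymerases from the nucleus. Photosynthesis genes are mostly read by the bacterial-type enzyme in green leaves, whereas the phage-type enzymes read rpoB and its neighbours. Many plastid genes lie in operons, and their long transcripts are cut into shorter RNAs whose stability differs. Mature plastid mRNAs mostly carry no stable poly(A) tail, and the labels do not say how the labelled copies were primed.

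All values are log2 signals of probe sets, and the lowest value, 2.20, is shared by all arrays. Within a group, Pearson's r between arrays over all genes was 0.985 to 0.996. The second col 48 h array had the lowest signal of its group in 43 of the 57 plastid genes, with a median of 0.35 log2 below the mean of the other arrays. The first atg5 control array was the lowest of its group in 31 of them, and its psaA signal was 1.42 log2 below the mean of its group's other arrays. The 3 leaf markers measured (RCA, LHCB4.1 and LHCB4.2) had means of 13.59 to 14.47 in controls, and the root marker PYK10 lay at the floor. The mean signal of 27 poly-A spike probe sets was 5.44 to 6.08 on the 48 h arrays, against 5.13 to 5.31 on the control arrays, and its part in the results was not tested.

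After 48 h under water, RNAs for the plastid's gene expression machinery were lower in both genotypes, while most RNAs of photosynthesis genes did not pass the test. In atg5, 12 of 15 gene expression genes fell, 7 of 10 ndh genes fell, and 10 of 32 photosynthesis genes fell with 1 that rose. In col, 13 of 15 gene expression genes fell, 6 of 10 ndh genes fell, and again 10 of 32 photosynthesis genes fell with 1 that rose. Rises and falls are limma's calls, at an adjusted p under 0.05 over all 13356 genes.

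The background bears on these counts. In atg5, 1 plastid gene rose and 29 fell (52.6% called), against 40.3% of all genes called, 19.1% higher and 21.2% lower. In col, also 1 rose and 29 fell (52.6% called), against 42.5% of all genes called, 20.4% higher and 22.1% lower. With genes of low mean signal left out of the fit, 70.5% of genes were called in atg5, with 37.3% lower, and 73.5% in col, with 38% lower. In that fit 9 of 32 photosynthesis, 7 of 9 ndh and 13 of 15 gene expression genes fell in atg5, and 11, 6 and 13 in col. There, 2 photosynthesis genes rose in atg5 and 1 in col. The share of plastid genes called in the fit to all genes lies below the share called among those brighter genes in their own fit. In the fit to all genes the plastid calls were 29 falls and 1 rise in each genotype. The 48 h and control arrays did not overlap, with 48 h lower, for 34 plastid genes in atg5 (25.8% of all genes) and for 38 in col (24.7% of all genes). With 48 h higher, this held for 3 plastid genes in atg5 (23% of all genes) and for 1 in col (22% of all genes).

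The size of the change set the classes apart. The median difference in log2 signal, 48 h minus control, was -1.59 in atg5 and -2.19 in col for the gene expression genes. It was -0.65 in atg5 and -0.51 in col for the ndh genes, and -0.17 in atg5 and -0.23 in col for the photosynthesis genes. Without the second atg5 48 h array the photosynthesis median in atg5 was -0.09. The median over all genes tested was 0 in both genotypes. Of all genes, 2666 lay at or near the floor on every array, with differences near 0, which bears on that median. The median signal of an array was 3.36 to 3.48 at 48 h, against 3.68 to 3.77 in controls. A fall of at least 2-fold was reached by 11 gene expression, 3 ndh and 5 photosynthesis genes in atg5, and by 11, 3 and 4 in col. Of all genes, 15.3% fell that far in atg5 and 15.8% in col.

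The same can be read on each array. The median shift of the gene expression genes from the col control mean, minus that of the photosynthesis genes, was -1.75, -1.63 and -1.79 log2 on the atg5 48 h arrays, against -0.31, -0.06 and -0.24 on the atg5 control arrays. It was -1.90, -2.35 and -1.42 on the col 48 h arrays, against -0.03, 0.07 and -0.04 on the col control arrays. The 48 h arrays of both genotypes lay below every control array. Without the second col 48 h array, 8 photosynthesis, 5 ndh and 13 gene expression genes fell in col. Without the first atg5 control array, 8, 7 and 12 fell in atg5 and none rose. When each array was centred on its median, which raises the median of all genes by 0.32 in atg5 and 0.30 in col, the median of the photosynthesis genes turned positive (0.15 in atg5 and 0.08 in col), while that of the gene expression genes was -1.27 in atg5 and -1.89 in col. With that centring 8 plastid genes rose and 21 fell in atg5, against 63.5% of all genes higher and 18.2% lower, and 7 rose and 22 fell in col, against 62.8% higher and 18.7% lower. The plastid rises include ndhF in both genotypes (0.27 in atg5 and 0.36 in col). Its signal lies at or near the floor, so no rise of ndhF can be read from this. These all-gene shares cover 2666 genes at or near the floor on every array, whose values centring alone raises at 48 h. The shares higher are therefore no measure of a general rise. Leaf RNA was measured in bulk, so fewer plastids or cells and less RNA in each cannot be told apart.

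**Figure D1:**
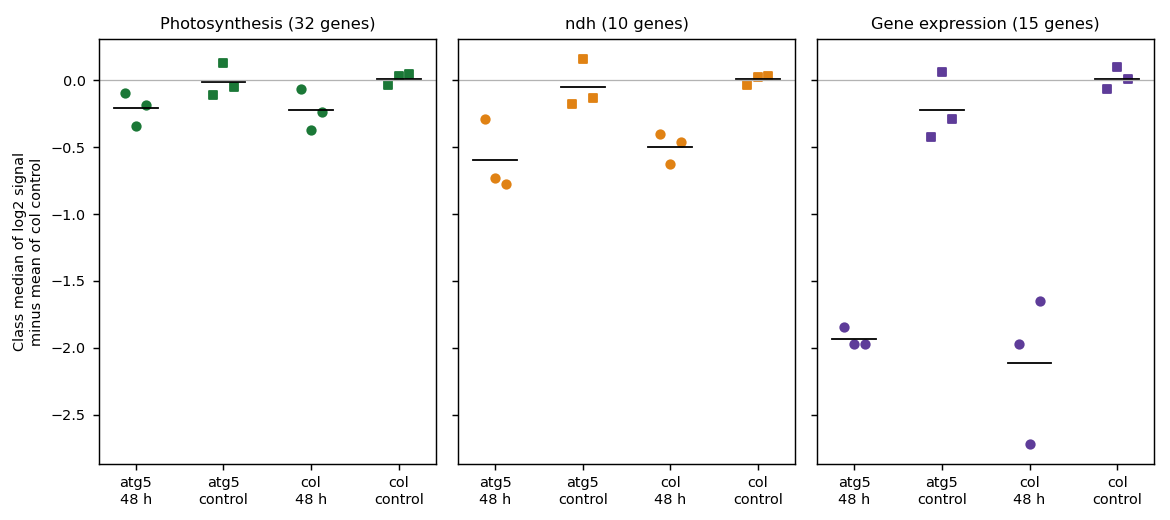
Signal of plastid-encoded genes by class on each of the 12 arrays, as the median over the genes of a class of the log2 signal minus that gene's mean in col control. Circles are 48 h arrays and squares are control arrays, black bars are group means, and atg5 is left of col. The gene expression genes on the 48 h arrays lie between -2.72 and -1.65, below all control arrays, while the photosynthesis genes lie between -0.37 and -0.07 on the 48 h arrays.

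Among the genes of the RNA polymerase, rpoA, rpoC1 and rpoC2 fell in both genotypes. The signal of rpoC1 (ArthCp013), for the β′ subunit, was 8.11, 8.46 and 7.74 on the atg5 48 h arrays, against 9.84, 10.76 and 10.28 on the atg5 control arrays. In col it was 8.30, 7.53 and 8.48 at 48 h, against 10.30, 10.49 and 10.49 in controls. All 48 h arrays lay below all control arrays, and the difference in log2 signal was -2.19 ± 0.31 in atg5 (SE, n = 3 arrays a group, limma adjusted p = 0.000354) and -2.32 ± 0.31 in col (adjusted p = 0.000224).

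The adjacent rpoC2, for the β″ subunit, had signals of 6.32, 5.61 and 5.74 in atg5 at 48 h, against 7.32, 8.69 and 7.64 in atg5 controls. In col they were 6.06, 5.89 and 6.78 at 48 h, against 8.80, 8.75 and 8.62 in controls. The groups did not overlap, with differences of -1.99 ± 0.37 in atg5 (adjusted p = 0.00209) and -2.48 ± 0.37 in col (adjusted p = 0.000512).

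The gene rpoA, for the α subunit, lies in another operon with ribosomal protein genes. Its signals were 11.98, 11.61 and 11.77 in atg5 at 48 h, against 13.11, 13.07 and 12.87 in atg5 controls, and 11.59, 11.18 and 12.25 in col at 48 h, against 13.27, 13.29 and 13.29 in col controls. No arrays overlapped, and rpoA fell by 1.23 ± 0.23 log2 in atg5 (adjusted p = 0.00225) and by 1.61 ± 0.23 in col (adjusted p = 0.0004).

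The first gene of the rpoB operon, rpoB for the β subunit, gave little signal on any array. It was 2.72, 2.72 and 2.60 in atg5 at 48 h, against 2.74, 2.77 and 2.77 in atg5 controls, and 2.77, 2.64 and 2.47 in col at 48 h, against 3.19, 3.59 and 3.01 in col controls. Only the col controls stood clearly higher. In col rpoB fell by 0.64 ± 0.14 log2 (adjusted p = 0.0042), and in atg5 the difference was -0.08 ± 0.14 (adjusted p = 0.819). This probe set lies too near the floor to show a fall of the size seen for rpoC1 and rpoC2.

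Of the ribosomal protein genes, 5 of 6 rpl genes and 4 of 5 rps genes fell in each genotype. Among all plastid genes measured here, rpl16 (ArthCp060), for a protein of the large ribosomal subunit, had the lowest difference in each. Its signals were 10.24, 10.37 and 9.99 in atg5 at 48 h, against 12.43, 12.93 and 12.54 in atg5 controls, and 10.01, 9.37 and 11.00 in col at 48 h, against 12.78, 12.95 and 12.82 in col controls. The third col 48 h array was the highest of the submerged ones, still below every control. The differences were -2.44 ± 0.35 in atg5 (adjusted p = 0.000418) and -2.72 ± 0.35 in col (adjusted p = 0.000191), which on a linear scale is 5.41-fold and 6.60-fold lower.

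Next to it, rpl14, also of the large subunit, had signals of 10.32, 10.47 and 10.17 in atg5 at 48 h, against 12.18, 12.69 and 12.37 in atg5 controls. In col they were 9.54, 9.59 and 10.94 at 48 h, against 12.73, 12.59 and 12.49 in controls. The groups were separate in both genotypes, with differences of -2.09 ± 0.34 in atg5 (adjusted p = 0.000858) and -2.58 ± 0.34 in col (adjusted p = 0.000213). The remaining ribosomal genes that fell ranged in difference from -2.04 (rps2) to -0.98 (rps4) in atg5 and from -2.34 (rpl22) to -0.87 (rps4) in col.

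The ribosomal protein genes that did not pass were rpl32 and rps14. For rpl32 the difference was -0.52 ± 0.19 in atg5 (adjusted p = 0.0596) and -0.30 ± 0.19 in col (adjusted p = 0.281), and the 48 h arrays lay below the control arrays in both. For rps14 it was -0.20 ± 0.23 in atg5 (adjusted p = 0.635) and -0.51 ± 0.23 in col (adjusted p = 0.114), at mean signals of 2.77 to 3.28, near the floor. The rpl32 difference in atg5 passed without the third atg5 48 h array (adjusted p = 0.0404) or the third atg5 control array (adjusted p = 0.0485). It also passed with quantile normalization (adjusted p = 0.0246) and without dim genes (adjusted p = 0.0277). The rps14 difference in col passed without the first col control array (adjusted p = 0.0138).

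**Figure D2:**
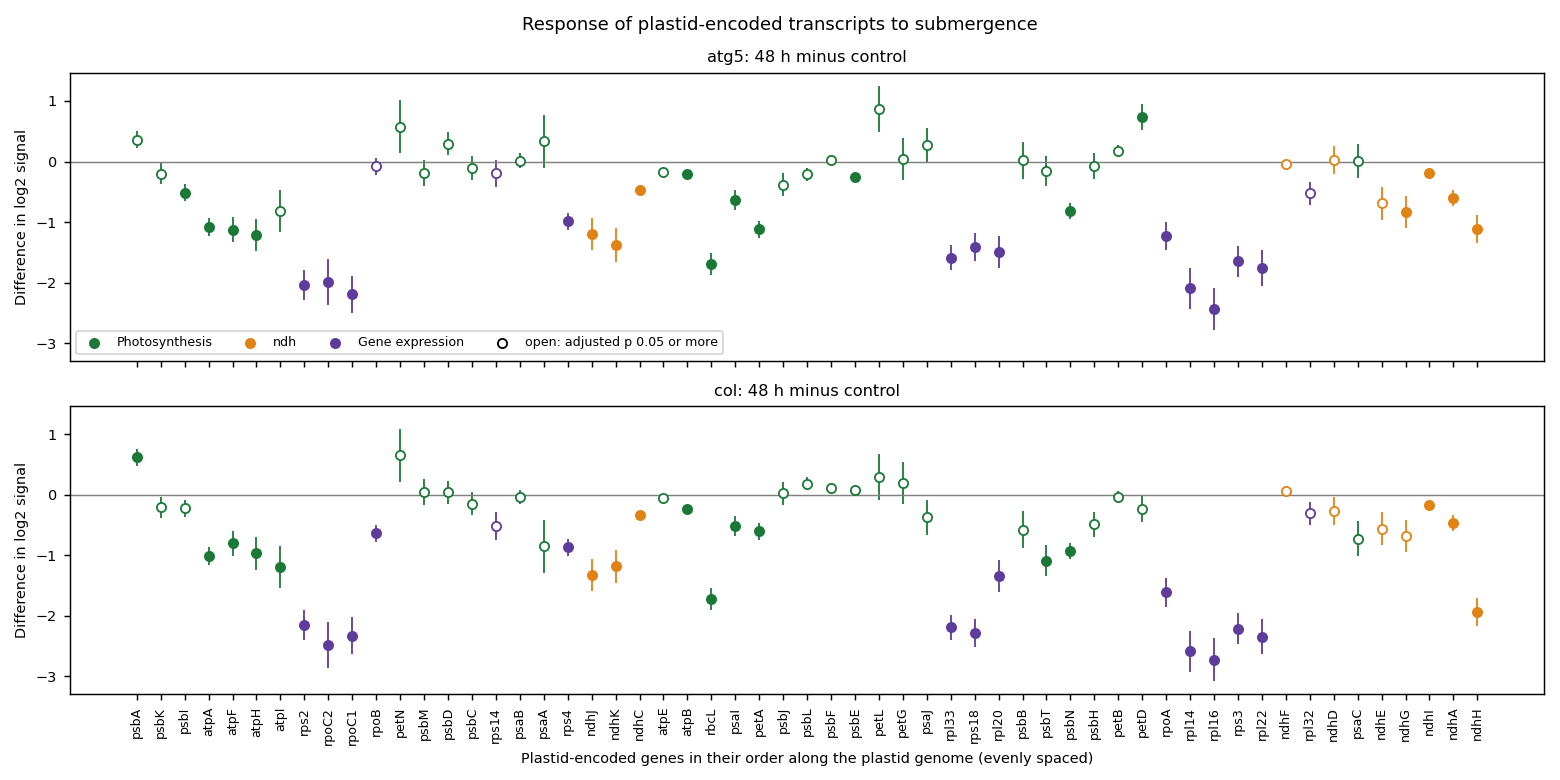
Difference in log2 signal (48 h minus control) for the 57 plastid genes, set out by their order on the plastid chromosome in the RefSeq TAIR10.1 annotation, with atg5 above col and colours for the classes. Error bars are the model SE, and open symbols did not pass. Runs of gene expression genes with differences below -1 (rps2 to rpoC1, rpl33 to rpl20, and rpoA to rpl22) can be seen, and the atp genes beside rps2 lie between -1.22 and -0.80.

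Photosynthesis genes were not uniform. The fall with the lowest adjusted p of the class was that of rbcL (ArthCp030), for the large subunit of Rubisco. Its signals were 9.84, 9.66 and 9.94 in atg5 at 48 h, against 11.35, 11.87 and 11.32 in atg5 controls, and 10.07, 9.81 and 10.41 in col at 48 h, against 11.78, 11.80 and 11.87 in col controls. Every 48 h array lay below every control array. The difference was -1.70 ± 0.18 in atg5 (adjusted p = 6.25e-05) and -1.72 ± 0.18 in col (adjusted p = 5.17e-05), a fall of 3.25-fold and 3.29-fold.

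Of 6 ATP synthase genes, 4 fell in atg5 and 5 in col. The genes atpF, atpH and atpI code for subunits of the membrane part of the enzyme. The signals of atpH, for the subunit of the rotating ring, were 9.98, 9.81 and 9.40 in atg5 at 48 h, against 10.94, 11.08 and 10.82 in atg5 controls, and 10.37, 9.27 and 10.01 in col at 48 h, against 10.63, 10.95 and 10.98 in col controls. The groups were separate, with differences of -1.22 ± 0.27 in atg5 (adjusted p = 0.00506) and -0.97 ± 0.27 in col (adjusted p = 0.0162). The call in col ended without the second or the third col control array (adjusted p = 0.0518 and 0.0535).

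For atpF, a subunit of the outer stalk, signals were 10.16, 9.98 and 9.70 in atg5 at 48 h, against 11.03, 11.12 and 11.08 in atg5 controls, and 10.34, 9.55 and 10.23 in col at 48 h, against 10.67, 10.79 and 11.07 in col controls. It fell by 1.12 ± 0.21 log2 in atg5 (adjusted p = 0.002) and by 0.80 ± 0.21 in col (adjusted p = 0.0126), with no overlap. For atpI, which codes for the subunit that forms the proton path, signals were 8.52, 7.85 and 7.88 in atg5 at 48 h, against 8.35, 9.58 and 8.77 in atg5 controls, and 8.76, 7.87 and 8.29 in col at 48 h, against 9.56, 9.58 and 9.34 in col controls. The atg5 groups overlapped at their first arrays and the col groups did not.

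The atpI difference was -0.82 ± 0.34 in atg5 (adjusted p = 0.0968) and -1.19 ± 0.34 in col (adjusted p = 0.0199). It passed in atg5 without the first atg5 control array (adjusted p = 0.0378). In col the call ended without the second or the third 48 h array (adjusted p = 0.0747 and 0.0509) or the first or second control array (adjusted p = 0.0565 and 0.0589). The catalytic part behaved unevenly: atpA, for the α subunit, fell by 1.08 ± 0.15 log2 in atg5 (adjusted p = 0.000288) and by 1.01 ± 0.15 in col (adjusted p = 0.000399), while atpB, for the β subunit, fell by 0.21 ± 0.06 in atg5 (adjusted p = 0.022) and by 0.23 ± 0.06 in col (adjusted p = 0.0126). The call of atpB in atg5 ended without the first or second atg5 control array (adjusted p = 0.0675 and 0.0552), and its sign turned in both genotypes with arrays centred on their medians (0.11 in atg5 and 0.07 in col). The atpB calls of both genotypes also ended with quantile normalization (adjusted p = 0.837 in atg5 and 0.0656 in col), a variance trend (0.326 in atg5 and 0.271 in col) and without dim genes (0.122 in atg5 and 0.0867 in col). The atpB and atpE probe sets had means of 14.49 to 14.84, close to the highest value in the table, 15.09, and whether they were near saturation was not tested.

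Photosystem II genes mostly did not pass. Of 14 psb genes, none rose and 3 fell in atg5, and 1 rose and 2 fell in col, where the rise was that of psbA (ArthCp002). This gene codes for D1, the reaction centre protein that is replaced fastest under light. Its signals were 12.72, 12.50 and 12.43 in atg5 at 48 h, against 12.08, 12.26 and 12.24 in atg5 controls, and 12.88, 12.60 and 12.33 in col at 48 h, against 11.95, 11.86 and 12.13 in col controls. In each genotype all 48 h arrays lay above all control arrays. The difference was 0.36 ± 0.14 in atg5 (adjusted p = 0.0791) and 0.62 ± 0.14 in col (adjusted p = 0.00599), and the interaction did not pass (-0.26, adjusted p = 0.759). The difference in atg5 passed in 5 of 21 alternatives. These were the fits without the first or the third col 48 h array (adjusted p = 0.0358 and 0.0352), which enter its estimate of spread. The others were array weights (adjusted p = 0.0323), only the atg5 groups in the fit (0.0477) and arrays centred on their medians (0.675, adjusted p = 0.00187).

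The gene for D2, the other reaction centre protein, is psbD. It had signals of 11.04, 10.59 and 10.62 in atg5 at 48 h, against 10.17, 10.57 and 10.62 in atg5 controls, and 10.61, 10.04 and 10.52 in col at 48 h, against 10.28, 10.29 and 10.48 in col controls. The arrays overlapped in both genotypes, with differences of 0.29 ± 0.19 in atg5 (adjusted p = 0.312) and 0.04 ± 0.19 in col (adjusted p = 1). The antenna protein genes psbB and psbC did not pass in either genotype, with differences of 0.02 and -0.11 in atg5 and -0.58 and -0.14 in col.

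A psb gene that fell in both genotypes was psbN (ArthCp051), whose product is needed to assemble photosystem II, as known from tobacco. It lies on the strand opposite to its neighbours in the psbB operon. Its signals were 8.37, 8.23 and 8.50 in atg5 at 48 h, against 9.13, 9.34 and 9.06 in atg5 controls, and 8.49, 8.05 and 8.32 in col at 48 h, against 9.08, 9.20 and 9.36 in col controls. No arrays overlapped, and psbN fell by 0.81 ± 0.13 log2 in atg5 (adjusted p = 0.000755) and by 0.93 ± 0.13 in col (adjusted p = 0.000305).

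For psbT, a small photosystem II subunit, signals were 9.33, 9.06 and 9.15 in atg5 at 48 h, against 8.73, 9.67 and 9.63 in atg5 controls, and 8.61, 8.41 and 8.74 in col at 48 h, against 9.45, 9.62 and 9.96 in col controls. The groups overlapped in atg5 and not in col. The difference was -0.16 ± 0.25 in atg5 (adjusted p = 0.78) and -1.09 ± 0.25 in col (adjusted p = 0.00625), and the interaction did not pass (0.93 ± 0.35, adjusted p = 0.339).

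Small subunits also made up the other psb falls in atg5. For psbI the signals were 10.59, 10.73 and 10.99 in atg5 at 48 h, against 11.53, 11.17 and 11.14 in atg5 controls, and 10.87, 10.46 and 10.63 in col at 48 h, against 10.92, 10.86 and 10.85 in col controls. The atg5 groups were separate while the col groups overlapped, and the difference was -0.51 ± 0.14 in atg5 (adjusted p = 0.0187) and -0.22 ± 0.14 in col (adjusted p = 0.292). The call in atg5 ended without the first or second atg5 48 h array (adjusted p = 0.0709 and 0.057) or the first atg5 control array (adjusted p = 0.0618).

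For psbE, a subunit of cytochrome b559, signals were 11.59, 11.54 and 11.42 in atg5 at 48 h, against 11.82, 11.68 and 11.82 in atg5 controls, and 11.81, 11.55 and 11.55 in col at 48 h, against 11.51, 11.55 and 11.61 in col controls. The atg5 groups did not overlap and the col groups did. The difference was -0.26 ± 0.08 in atg5 (adjusted p = 0.0286) and 0.08 ± 0.08 in col (adjusted p = 0.48). The call in atg5 ended without the second or the third atg5 48 h array (adjusted p = 0.0564 and 0.104) or the first or the third atg5 control array (adjusted p = 0.0897 and 0.0908), and with arrays centred on their medians the sign turned (0.06). That call also ended with quantile normalization (adjusted p = 0.0501) and without dim genes (adjusted p = 0.0799).

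Of the 5 photosystem I genes, psaI, for a small subunit, fell in both genotypes, by 0.64 ± 0.17 log2 in atg5 (adjusted p = 0.0134) and by 0.52 ± 0.17 in col (adjusted p = 0.0341). In atg5 the call ended without the third atg5 48 h array (adjusted p = 0.0532), and in col it ended without any 1 of 5 col arrays (adjusted p = 0.0515 to 0.121; all but the first 48 h array), with the replicate number as a block (adjusted p = 0.0653) and with array weights (adjusted p = 0.103). psaC did not pass, with differences of 0.01 in atg5 and -0.72 in col. In col it passed in 4 of 21 alternatives, among them without the first col 48 h array (adjusted p = 0.00867) and quantile normalization (0.0437). The reaction centre genes psaA and psaB did not pass.

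For psaA the signals were 8.23, 7.93 and 7.87 in atg5 at 48 h, against 6.73, 8.22 and 8.08 in atg5 controls, and 8.17, 7.05 and 8.34 in col at 48 h, against 8.54, 8.80 and 8.78 in col controls. A single low array stood out in atg5 control and another in col at 48 h, the same arrays that were low for most plastid genes. The difference was 0.33 ± 0.44 in atg5 (adjusted p = 0.697) and -0.85 ± 0.44 in col (adjusted p = 0.174). For psaB the signals were 13.80, 13.85 and 13.73 in atg5 at 48 h, against 13.72, 13.96 and 13.66 in atg5 controls, and 13.92, 13.62 and 14.04 in col at 48 h, against 13.98, 13.95 and 13.76 in col controls. The arrays of all groups overlapped, with differences of 0.02 ± 0.12 in atg5 (adjusted p = 1) and -0.04 ± 0.12 in col (adjusted p = 0.971).

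Of the 6 genes of the cytochrome b6f complex, which links the photosystems, petA (cytochrome f) fell in both genotypes, by 1.12 ± 0.14 log2 in atg5 (adjusted p = 0.000162) and by 0.60 ± 0.14 in col (adjusted p = 0.00633). The call in col ended with arrays centred on their medians (-0.30, adjusted p = 0.0658) and with only the col groups in the fit (adjusted p = 0.0638). The gene petD (ArthCp054), for subunit IV, rose in atg5. Its signals were low: 3.79, 3.31 and 3.60 in atg5 at 48 h, against 2.42, 3.02 and 3.07 in atg5 controls, and 3.79, 3.49 and 3.16 in col at 48 h, against 3.76, 3.65 and 3.75 in col controls. The atg5 control arrays lay below all the others. The difference was 0.73 ± 0.21 in atg5 (adjusted p = 0.0224) and -0.24 ± 0.21 in col (adjusted p = 0.44). The rise of petD in atg5 ended without the first or the third atg5 48 h array (adjusted p = 0.0827 and 0.0637), without the first atg5 control array (adjusted p = 0.0656), and with the replicate number as a block (adjusted p = 0.054). The brighter petL differed by 0.87 in atg5 and 0.29 in col and passed in neither. In atg5 petL passed in 5 of 21 alternatives, among them array weights (adjusted p = 0.0452), only the atg5 groups in the fit (0.0149) and without dim genes (0.0341).

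**Figure D3:**
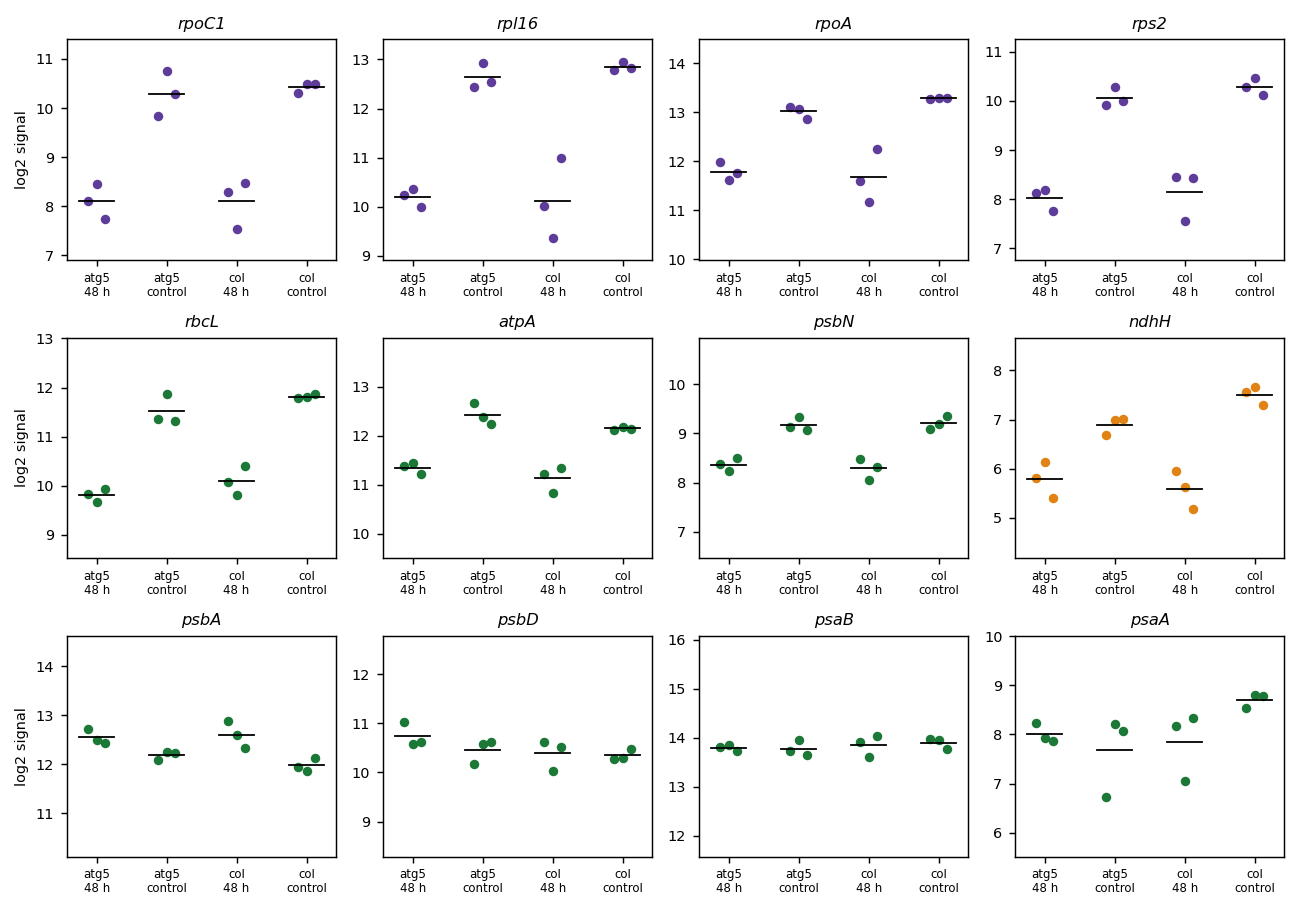
Log2 signal of selected plastid genes on each array, with atg5 at 48 h, atg5 control, col at 48 h and col control from left to right. Points are arrays and black bars are group means, and every panel spans the same number of log2 units. The 48 h points of rpl16, rpoC1 and rbcL lie below all control points, those of psbA lie above the controls of their genotype, and those of psaB overlap with them.

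Of the 10 ndh genes, 7 fell in atg5 and 6 in col. The genes for the stromal arm of the complex are ndhH, ndhI, ndhJ and ndhK. For ndhK the signals were 9.13, 8.78 and 9.02 in atg5 at 48 h, against 9.98, 10.85 and 10.23 in atg5 controls, and 9.65, 8.66 and 9.34 in col at 48 h, against 10.44, 10.44 and 10.32 in col controls. All 48 h arrays lay below all controls, and the difference was -1.38 ± 0.28 in atg5 (adjusted p = 0.0032) and -1.18 ± 0.28 in col (adjusted p = 0.00714).

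For ndhJ the signals were 11.11, 10.71 and 10.85 in atg5 at 48 h, against 11.80, 12.51 and 11.98 in atg5 controls, and 11.35, 10.35 and 11.10 in col at 48 h, against 12.23, 12.22 and 12.33 in col controls. The groups were again separate, with a fall of 1.20 ± 0.27 log2 in atg5 (adjusted p = 0.00548) and of 1.33 ± 0.27 in col (adjusted p = 0.00298). For ndhH (ArthCp080) the signals were 5.81, 6.13 and 5.40 in atg5 at 48 h, against 6.68, 6.99 and 7.01 in atg5 controls, and 5.94, 5.62 and 5.17 in col at 48 h, against 7.55, 7.67 and 7.31 in col controls. No arrays overlapped, and the difference was -1.12 ± 0.23 in atg5 (adjusted p = 0.00393) and -1.93 ± 0.23 in col (adjusted p = 0.000128).

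The remaining stromal arm gene, ndhI, fell by only 0.18 ± 0.04 log2 in atg5 (adjusted p = 0.00725) and by 0.17 ± 0.04 in col (adjusted p = 0.0104), and its sign turned with arrays centred on their medians (0.13 in each genotype). Both ndhI calls also ended with a variance trend (adjusted p = 0.262 in atg5 and 0.292 in col) and without dim genes (0.149 in atg5 and 0.174 in col). Its group means were 14.10 to 14.28, and whether the probe set was near saturation was not tested. The membrane arm genes changed less than ndhH, ndhJ and ndhK. ndhA fell by 0.61 ± 0.13 in atg5 (adjusted p = 0.00523) and by 0.46 ± 0.13 in col (adjusted p = 0.0212), and in col this ended without the first or second 48 h array or the second or the third control array (adjusted p = 0.0562 to 0.0771). ndhC fell by 0.46 ± 0.07 in atg5 (adjusted p = 0.000433) and by 0.33 ± 0.07 in col (adjusted p = 0.00306), and both calls ended with arrays centred on their medians (-0.15, adjusted p = 0.149 in atg5 and -0.03, adjusted p = 0.774 in col). ndhG fell in atg5 by 0.83 ± 0.26 (adjusted p = 0.0319), and its difference in col was -0.68 ± 0.26 (adjusted p = 0.0664).

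The ndhG call in atg5 ended without the second or the third atg5 48 h array (adjusted p = 0.079 and 0.0993), without the second atg5 control array (adjusted p = 0.0942) and with the replicate block (adjusted p = 0.0508), and in col it passed without the first 48 h array (adjusted p = 0.0122) or the second atg5 control array (adjusted p = 0.0273). ndhE and ndhD did not pass, with differences of -0.69 and 0.03 in atg5 and -0.56 and -0.27 in col. ndhE passed in atg5 without the first atg5 48 h array (adjusted p = 0.0445) or the third col control array (adjusted p = 0.0329). ndhF gave no usable signal: it was 2.21, 2.21 and 2.20 in atg5 at 48 h, against 2.21, 2.35 and 2.21 in atg5 controls, and 2.39, 2.20 and 2.21 in col at 48 h, against 2.21 on each col control array. These values lie at or near the floor, so neither a level nor a change of ndhF can be read, and its adjusted p was 0.609 in atg5 and 0.437 in col.

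The order of genes on the plastid chromosome, taken from the RefSeq TAIR10.1 annotation, shows where the classes meet. In the run from rpoC1 and rpoC2 through rps2 to atpI, atpH, atpF and atpA, the differences in atg5 were -2.19, -1.99, -2.04, -0.82, -1.22, -1.12 and -1.08. In col they were -2.32, -2.48, -2.14, -1.19, -0.97, -0.80 and -1.01. Where the ribosomal gene rps2 meets atpI, the gap between their differences was 1.22 log2 in atg5 and 0.95 in col. The genes rpl22, rps3, rpl16, rpl14 and rpoA, which share an operon, all fell in both genotypes, with differences of -2.44 to -1.23 in atg5 and -2.72 to -1.61 in col.

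Within an operon the differences were not always alike. psaJ, for a small photosystem I subunit, is transcribed with rpl33 and rps18. Its differences were 0.27 in atg5 and -0.37 in col and did not pass, while rpl33 fell (-1.59 in atg5 and -2.19 in col), as did rps18 (-1.42 in atg5 and -2.29 in col). In the operon of ndhC, ndhK and ndhJ ndhC had a difference of -0.46 in atg5 and -0.33 in col, against -1.38 and -1.20 for ndhK and ndhJ in atg5 and -1.18 and -1.33 in col. Pairs of neighbours were taken among the 57 genes only, so other plastid genes can lie between them. Over 33 such pairs in the same operon, the median gap between their differences was 0.32 in atg5 and 0.21 in col. Over 23 neighbouring pairs not in the same operon it was 0.65 in atg5 and 0.56 in col. Split by class, it was 0.40 in atg5 and 0.22 in col over 41 pairs of the same class. Over 15 pairs of different classes it was 0.66 in atg5 and 0.46 in col. Operon and class overlap, and their parts were not told apart. These medians are a description, since neighbours share transcripts and arrays. The operons were written down by hand from general knowledge and not from the files.

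Several proteins that work with these gene products come from the nucleus. Among all genes, 21.2% fell in atg5 and 22.1% in col, and without dim genes 37.3% and 38%. The lists below were not tested against these shares. Of 38 listed nuclear genes of plastid ribosomal proteins, 9 were measured and all 9 fell in both genotypes, with a median difference of -3.31 in atg5 and -3.30 in col. Examples are PRPL19A (-3.73 in atg5 and -4.13 in col) and PRPL34 (-3.75 in atg5 and -3.99 in col). Of 20 listed nuclear NDH genes 3 were measured: NDHN fell (-3.40 in atg5 and -4.59 in col), as did NDHL (-2.58 in atg5 and -4.03 in col), and NDHS fell in col (-0.97) but did not pass in atg5 (-0.50, adjusted p = 0.0739). Of 55 listed nuclear photosystem, ATP synthase and Rubisco genes 9 were measured, and 8 fell in atg5 and 9 in col, with medians of -1.40 in atg5 and -1.63 in col. Those measured were PETM, PSBY, PSAN, PSAE1, PSBW, ATPC1, LHCB4.1, LHCB4.2 and LHCB4.3. No nuclear Rubisco gene was among them. Both plastid RNA-binding protein genes measured of 20 listed RNA factors, CP29B and CP33B, fell in each genotype. None of 6 sigma factor genes and none of 13 polymerase-associated protein genes had a one-gene probe set in the annotation used, and they were not analysed here. That annotation left 8730 probe sets without a name, so listed genes not measured here are not shown to be absent from the arrays. The phage-type polymerase gene RPOTmp, 1 of 2 listed, did not pass at mean signals of 2.87 to 3.01. Markers of cell types were measured for few genes, and their part in the results was not tested. Of 8 leaf markers 3 were measured: LHCB4.1 and LHCB4.2, which also count among the photosystem genes above, fell in both genotypes, and RCA fell in col (-1.12, adjusted p = 0.000989) with a difference of -0.44 in atg5 (adjusted p = 0.0998). The phloem marker SWEET11, 1 of 3, rose in col (0.90, adjusted p = 0.0117) and differed by -0.26 in atg5 (adjusted p = 0.484). The dividing-cell marker AUR1, 1 of 3, did not pass (-1.03 in atg5, adjusted p = 0.126, and -1.25 in col, adjusted p = 0.0602), nor did the guard cell marker FAMA, 1 of 3, or the root marker PYK10, 1 of 7.

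The genotype comparisons ask whether plastid RNAs depend on ATG5. No plastid gene passed in control, at 48 h or for the interaction, which is the submergence response of atg5 minus that of col. Among all genes, limma called 2.34% between atg5 and col in control, 3.42% at 48 h and 0.599% for the interaction. At an unadjusted p under 0.05 there were 10 plastid genes in control (17.5%, against 13.8% of all genes), 1 at 48 h (1.75%, against 15.4%) and 8 for the interaction (14.0%, against 11.5%).

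In control, the genes with the smallest p were petD, rpoB and psbI, whose signals are given above. atg5 minus col was -0.89 ± 0.21 log2 for petD (limma adjusted p = 0.0816), -0.50 ± 0.14 for rpoB (adjusted p = 0.117) and 0.41 ± 0.14 for psbI (adjusted p = 0.241). The atg5 and col controls did not overlap for these genes, and petD and rpoB lie near the floor. With genes of low signal left out, petD passed (adjusted p = 0.0304), and without the third col control array rpoB did (adjusted p = 0.0482).

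At 48 h the smallest p belonged to psbT, petG and atpE. For psbT atg5 minus col was 0.59 ± 0.25 log2 (adjusted p = 0.299). The small cytochrome b6f subunit gene petG had signals of 6.88, 6.89 and 6.85 in atg5 at 48 h and 6.52, 5.70 and 6.34 in col at 48 h, with 7.60, 6.49 and 6.42 in atg5 controls and 6.09, 6.31 and 5.60 in col controls. The atg5 arrays lay above the col arrays, with a difference of 0.69 ± 0.34 (adjusted p = 0.416). The gene atpE, for the ε subunit of the ATP synthase, had signals of 14.57, 14.35 and 14.55 in atg5 at 48 h and 14.60, 14.55 and 14.68 in col at 48 h, with 14.69, 14.71 and 14.58 in atg5 controls and 14.60, 14.70 and 14.70 in col controls. These overlapped, with a difference at 48 h of -0.12 ± 0.06 (adjusted p = 0.447). Without the third col 48 h array, rpl14 and rps3 passed at 48 h (adjusted p = 0.0329 and 0.00927), and rps3 passed for the interaction (adjusted p = 0.0302).

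For the interaction the smallest p belonged to petD (0.97 ± 0.30, adjusted p = 0.223), psbE (-0.34 ± 0.11, adjusted p = 0.253) and rpoB (0.56 ± 0.19, adjusted p = 0.277). Of the falls, 26 were called in both genotypes, 12 of gene expression, 6 of ndh and 8 of photosynthesis genes, which is 89.7% of the 29 in each. The calls in atg5 that were not made in col were ndhG, psbE and psbI, and those in col that were not made in atg5 were atpI, psbT and rpoB. None of these 6 passed the interaction test, so no difference between the genotypes was shown for them. Across the 57 genes the submergence differences of atg5 and col were correlated with r = 0.89 (Pearson) and rho = 0.82 (Spearman), given as a description. The genotypes share no arrays here, but genes of an operon share transcripts, so the genes are not independent.

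The gene expression genes had a median difference, atg5 minus col, of -0.23 log2 in control, with 14 of 15 below 0, and of 0.06 at 48 h. Their median interaction was 0.38, with 12 of 15 above 0. The photosynthesis genes had medians of -0.01 in control, -0.05 at 48 h and 0.01 for the interaction, and the ndh genes -0.02, -0.06 and -0.11. The first atg5 control array had the lowest median of the gene expression genes among the controls (-0.43 from the col control mean). Without it the gene expression median was -0.14 in control and 0.21 for the interaction. Over all arrays left out in turn, it was -0.37 to -0.14 in control (lowest without the second atg5 control array), -0.13 to 0.19 at 48 h (lowest without the second and highest without the third col 48 h array) and 0.21 to 0.63 for the interaction (highest without the third col 48 h array). None of these medians was tested, and no gene expression gene passed singly.

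**Figure D4:**
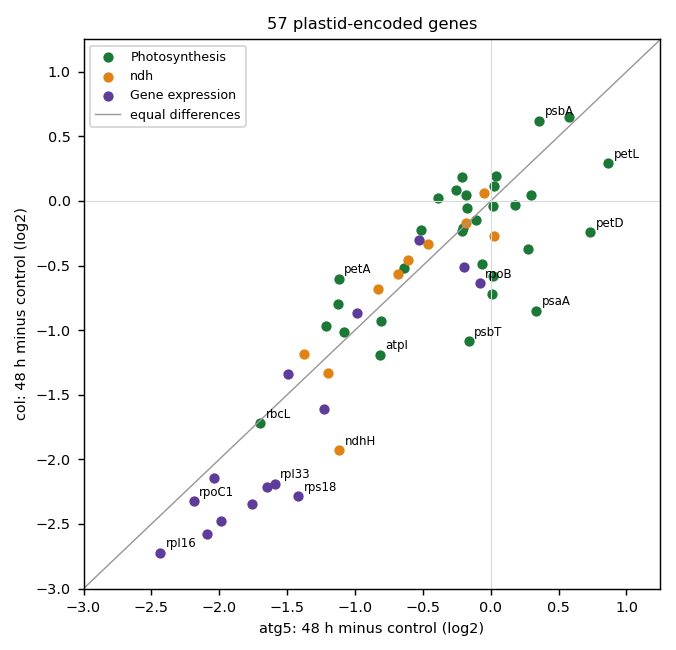
Submergence difference in log2 signal (48 h minus control) of each of the 57 plastid genes in atg5 and in col, coloured by class. The gene expression genes reach -2.44 in atg5 and -2.72 in col, most photosynthesis genes lie nearer 0, and no gene was called in opposite directions.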

How the data were processed

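Leaf RNA of 12 samples was measured on 1-colour Affymetrix arrays. The values are the authors' deposited log2 signals per probe set. Per the submitters' processing notes, the tools named are MAS5 and GCRMA, whose role is not given in the sources used here, and the log2 scale and a floor of 2.20 were read from the values. Depth has no meaning for arrays, and the number of arrays limits the precision. Replicates are labelled as biological.

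Of 22810 probe sets, 64 controls, 503 annotated to several genes and 8730 without a name were left out. For 146 genes with several probe sets the brightest was used, which gave 13356 genes. limma 3.58.1 (R 4.3.3; lmFit, eBayes) was fitted to all arrays with 1 mean per group, 8 residual and 0.488 prior degrees of freedom. Two-sided p-values were adjusted (Benjamini-Hochberg) over all genes in each of 5 comparisons. Errors are model SE. The method was tested on simulated data with independent noise and changes set in few, brighter genes. That test does not cover changes near the floor or the large share of genes called here. Gene names, the plastid genome and gene order come from a platform annotation and RefSeq TAIR10.1, and no coordinates or sequences were used here.

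The genes, classes, operons and lists were chosen with earlier results of these data known, so no list was tested. Genes with values on every array were a fixed set of 9, the 3 strongest called changes in each direction per class and submergence comparison, and the 3 smallest p-values of each genotype comparison. Alternatives were quantile normalization, median centring, a filter below the 40th percentile of mean signal, mean over probe sets, all probe sets, the replicate number as a block, a variance trend, array weights, only the groups compared, a fold of at least 2, and leaving out each array.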

Additional observations from a re-analysis of the deposited data

How the results depend on the processing

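In each submergence comparison 29 plastid genes fell. Of these calls, 21 in atg5 and 19 in col kept their direction and their side of the threshold in those of the 21 alternatives other than the fold rule that gave a value for them. Centring arrays on their medians moved most values: 8 genes then rose in atg5 and 7 in col, and the class medians were 0.15 (photosynthesis), -0.33 (ndh) and -1.27 (gene expression) in atg5, and 0.0767, -0.21 and -1.89 in col. Signs turned there for ndhI (0.13), psbE (0.0612), ndhF (0.27) and atpB (0.11) in atg5, and for ndhI (0.13), petB (0.27), atpE (0.25) and atpB (0.072) in col. The rises under centring include ndhF in both genotypes, whose signal lies at or near the floor. With that centring the falls of ndhA, ndhC, ndhG, psaI and psbI in atg5, and of ndhA, ndhC, petA, psaI and rpoB in col, no longer passed. With only the groups compared, atpB, ndhG, petD, psaI and psbI did not pass in atg5, nor atpF, atpH, ndhA, petA, psaI and rpoB in col. Each turn follows from the shift of all genes by 0.32 in atg5 and 0.30 in col. With a fold of at least 2, 0 genes rose and 19 fell in atg5, and 0 rose and 18 fell in col. The number of genes higher in atg5 was 2 without dim genes, 3 with array weights, 2 with only the groups compared, and 0 with the replicate number as a block. For atg5 minus col in control, 1 gene was lower without dim genes. ndhF was removed by the filter on dim genes and has no value there.

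Over the fits that leave out 1 array, the number higher in atg5 was 0 to 2, and that lower was 26 to 31 in atg5 and 25 to 30 in col. The ndh median in col was -0.65 to -0.34. In the genotype comparisons the number lower in control was 0 to 1, the number higher at 48 h 0 to 2 and for the interaction 0 to 1. Medians of the ndh genes were -0.21 to 0.0562 in control and -0.16 to 0.0583 for the interaction, and those of photosynthesis genes -0.0989 to 0.0951 at 48 h and -0.13 to 0.0843 for the interaction. With the replicate number as a block, 28 plastid genes fell in each genotype, and 0 rose in atg5 and 1 in col. For same-numbered arrays, r of deviations from group means was -0.48 to 0.10. With 3 arrays a group this cannot exclude that the numbers pair the samples.

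Signals at the floor of 2.20 are upper limits, which bears on ndhF. Those of rpoB, rps14 and petD lie above the floor but low. No detection calls or batches were used here.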

Other observations

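Another 12 plastid-encoded genes were measured that belong to none of the classes as listed, and their values were seen before they were chosen for mention. Of these, 10 fell in each genotype, with a median difference of -1.35 log2 in atg5 and -1.52 in col. Among all genes, 21.2% fell in atg5 and 22.1% in col, and without dim genes 37.3% and 38%. The 12 genes were not tested against these shares. The ribosomal protein genes rps15, rps16, rps19 and rpl36 fell, with differences of -1.88 to -1.53 in atg5 and -2.21 to -1.92 in col (limma adjusted p at most 0.011 in atg5 and 0.00268 in col). ycf3, for an assembly factor of photosystem I, fell by 2.42 ± 0.42 in atg5 (adjusted p = 0.0014) and by 2.61 ± 0.42 in col (adjusted p = 0.000822). matK, for an intron maturase, fell by 1.48 ± 0.16 in atg5 (adjusted p = 7.56e-05) and by 1.85 ± 0.16 in col (adjusted p = 1.61e-05). accD, for a subunit of acetyl-CoA carboxylase, differed by 0.01 in atg5 and -0.33 in col, and psbZ, for a photosystem II subunit, by 0.05 in atg5 and -0.09 in col, and neither passed.

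Of 11 mitochondrion-encoded genes measured, 1 rose and none fell in atg5, and 4 rose and 1 fell in col, with medians of 0.23 in atg5 and 0.21 in col. Of all genes tested, 40.3% were called in atg5 and 42.5% in col, and the mitochondrial genes were not tested against them. cox1, for a subunit of cytochrome c oxidase, rose by 0.83 ± 0.15 in atg5 (adjusted p = 0.0019) and by 0.85 ± 0.15 in col (adjusted p = 0.00157). In col, cox2, nad4 and nad4L also rose and nad2 fell (-1.13, adjusted p = 0.0256). The probe sets of matR and nad6 lay at or near the floor in every group.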
